A study of Mus musculus with 8 samples.

Results

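The genes described here encode the cell's glutathione, thioredoxin and other antioxidant enzymes together with the metallothioneins. They were chosen by name from the platform's annotation, as probe sets with 1 gene symbol that belongs to the Gst, Gpx, Prdx, Sod, Txn or Mt families or is Srxn1, Gclc, Gclm, Gss, Gsr, Cat, Hmox1, Nqo1, Akr1b3, Akr1b7 or Akr1b8. The rule found 68 probe sets of 52 genes, among 10833 probe sets of 8251 genes with 1 symbol. Akr1b3 and Akr1b7 had no such probe set, and probe sets named for Prdx1 also carry a second symbol and were left out. A gene with several probe sets is described by the one whose mean signal over the 8 arrays was highest.

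The samples were cumulus cells, the somatic cells around the oocyte, from female C57Bl/6 mice of 3 to 4 weeks. Wild-type (WT) mice were compared with mice that lack Ptger2, the gene of the prostaglandin E2 receptor EP2 (Ptger2 -/-, labelled EP2KO), and the labels do not say in which cells the gene was deleted. All mice received PMSG (5 IU), a hormone that makes follicles grow. Cells were taken 48 h afterwards (0 h) or at 3, 9 or 14 h after hCG (5 IU), which acts like the ovulatory surge of LH. With 1 Affymetrix array per genotype and time there were 8 arrays; cells of 0, 3 and 9 h came from punctured ovarian follicles and were stripped with glass capillaries, while those of 14 h came from the oviduct and were freed with 0.1% hyaluronidase. Effects of ovulation and of this second route of collection cannot be told apart at 14 h.

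Glutathione is a small thiol built by glutamate-cysteine ligase (Gclc and Gclm) and glutathione synthetase (Gss), and glutathione reductase (Gsr) returns its oxidised form to use with NADPH. Glutathione peroxidases spend it on peroxides and glutathione transferases couple it to reactive molecules. A parallel chain runs from NADPH through thioredoxin reductase to thioredoxin, which recharges the peroxiredoxins, while sulfiredoxin (Srxn1) repairs peroxiredoxins that have been over-oxidised. Metallothioneins are small cysteine-rich proteins that bind zinc and copper. Many of these genes are known targets of the transcription factor NRF2 (Nfe2l2) at antioxidant response elements, and the metallothioneins of the zinc sensor MTF1 at metal response elements.

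Promoter windows are shown for Srxn1 and Akr1b8, which had the largest changes of the list, and for the neighbouring pair Mt1 and Mt2, which moved alike after hCG. They were read from RefSeq's promoter table for GRCm38.p6, which holds windows for 44 of the 52 genes, each running from 250 bases before to 50 bases after an annotated transcript start. In Mt1 and Mt2, capitals mark the metal response element core (TGCGCNC or TGCACNC) and the antioxidant response element core (TGACNNNGC). In Srxn1 and Akr1b8 they mark the antioxidant core, the AP-1 site (TGANTCA) and the cAMP response element (TGACGTCA). Both strands were searched, and a match on the other strand reads as its reverse complement.
Mt1, plus strand, chr8:94178839-94179138: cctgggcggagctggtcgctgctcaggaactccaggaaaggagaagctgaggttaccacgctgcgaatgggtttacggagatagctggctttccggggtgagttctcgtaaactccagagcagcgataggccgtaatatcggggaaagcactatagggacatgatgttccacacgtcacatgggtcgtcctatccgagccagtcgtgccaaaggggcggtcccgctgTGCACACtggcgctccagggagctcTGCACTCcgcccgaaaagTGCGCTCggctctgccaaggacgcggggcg
Mt2, plus strand, chr8:94172368-94172667: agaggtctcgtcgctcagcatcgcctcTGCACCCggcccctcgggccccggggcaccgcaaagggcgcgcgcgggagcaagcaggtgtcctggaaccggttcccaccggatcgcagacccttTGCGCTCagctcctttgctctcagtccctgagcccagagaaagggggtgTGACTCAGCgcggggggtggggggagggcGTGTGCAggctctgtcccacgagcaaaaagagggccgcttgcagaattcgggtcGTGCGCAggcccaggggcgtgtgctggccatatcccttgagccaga
Srxn1, plus strand, chr2:152105274-152105573: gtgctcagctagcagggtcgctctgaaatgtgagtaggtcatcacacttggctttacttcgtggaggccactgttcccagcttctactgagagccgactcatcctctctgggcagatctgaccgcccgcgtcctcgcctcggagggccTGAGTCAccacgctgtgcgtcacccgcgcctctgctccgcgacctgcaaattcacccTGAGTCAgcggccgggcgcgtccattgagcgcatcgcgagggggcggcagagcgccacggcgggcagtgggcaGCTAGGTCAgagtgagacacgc
Akr1b8, plus strand, chr6:34353896-34354195: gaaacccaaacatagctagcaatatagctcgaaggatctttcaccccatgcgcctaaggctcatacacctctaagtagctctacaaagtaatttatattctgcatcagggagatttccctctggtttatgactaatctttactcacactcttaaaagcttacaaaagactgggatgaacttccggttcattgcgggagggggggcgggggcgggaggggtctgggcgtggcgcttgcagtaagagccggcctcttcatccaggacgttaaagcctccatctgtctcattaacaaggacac

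The Mt1 window held 3 metal response cores, at -23, 2 and 20 counted from 0 at the annotated transcript start, and that of Mt2 held 4. Motifs outside the windows were not searched, and the start used in these cells was not tested. The Mt2 window also held 1 antioxidant core at -79, TGACTCAGC, which overlaps an AP-1 site. In Srxn1 there were 2 AP-1 sites, at -102 and -45, and 1 antioxidant core on the other strand at 28, whereas the window of Akr1b8 held none of its 3 motifs. Over all 32851 windows of this length the metal core was present in 25.7%, the antioxidant core in 12.4%, the AP-1 site in 7.81% and the cAMP response element in 1.79%. Of the 44 member genes with a window, 17 held the metal core, 8 the antioxidant core (Gclm, Gsta3, Gstm5, Mt2, Sod1, Srxn1, Txndc5 and Txnrd1), 4 the AP-1 site and 0 the cAMP response element. A gene was counted where any of its windows held the motif, while the percentages are of single windows. The counts and percentages are therefore not of the same unit. A match is a run of letters, not a measured binding site.

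Ptger2 itself read 4.95 to 5.97 in WT and 4.24 to 4.69 in EP2KO on the log2 scale of the deposited signals, with no overlap. The 3′ minus 5′ difference of the Gapdh control probe sets, which grows as RNA or amplified product shortens, was largest at 14 h (WT 2.87, EP2KO 2.82) and smallest at 3 h (WT 0.80, EP2KO 0.96), with 1.22 to 1.86 on the other 4 arrays. Granulosa and cumulus markers were measured for 13 genes, and their summed signal lay between 14.14 and 15.80 (log2) on every array; at 14 h against 0 h 2 of them rose and 8 fell. Of the 20 measured leukocyte markers 9 rose at 14 h against 0 h, among them S100a8, a neutrophil protein, by 2.0, and of 11 oviduct epithelium markers 4 rose, led by Ovgp1, oviductal glycoprotein, at 3.64, and 1, Foxj1, fell by 0.42. The log2 of the summed leukocyte signal was 12.42 and 12.80 at 14 h against 11.72 to 12.14 earlier, and that of the oviduct list 12.41 and 12.69 against 11.49 to 11.65. The summed signal of 6 measured erythroid markers was highest in WT at 9 h (13.66) and at 3 h (12.59), against 10.99 to 11.95 on the other 6 arrays. Their median ran only from 7.81 to 8.25 over the 8 arrays. At 3 h against 0 h 2 of the 6 rose and 2 fell, and at 9 h only the globins Hba-a1 and Hbb-b2 rose and 0 fell. Over all probe sets 17.4% rose and 25.4% fell at 3 h, 10.9% and 12.1% at 9 h, and 13.5% and 15.2% at 14 h. Arrays have no true zero, so none of these markers can be called absent. Their part in the results below was not tested, except where a value is given.

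The time contrasts ask which of these genes cumulus cells change after the ovulatory stimulus and whether the change lasts through ovulation. Each compares 2 arrays per time (1 WT and 1 EP2KO) in a limma fit to all 8 arrays with time and genotype as terms, and a gene is said to rise or fall where its p, adjusted by Benjamini-Hochberg over 12422 probe sets, is under 0.05. The members, taken by their probe set of highest mean, read higher than the array at large. Of the 52, 39 lay above the array median on all 8 arrays, as did 41.2% of all probe sets. The median of their mean levels was 9.38, beside 7.88 for all probe sets. The shares of all probe sets set beside member counts are not matched for level, and its part was not tested. They also count every probe set, where the members count 1 per gene. The member probe sets left out by that choice fell more often at 3 h than the representatives did. By 3 h, 20 of the 52 genes rose and 9 fell, where 17.4% of all probe sets rose and 25.4% fell. At 9 h against 0 h 15 rose and 7 fell (10.9% and 12.1% of all probe sets), and at 14 h 9 rose and 10 fell (13.5% and 15.2%). The median log2 change of the 52 genes was 0.24, 0.09 and -0.11 at the 3 times, beside -0.135, -0.08 and -0.06 for all probe sets. At 3 h 9 members rose and 1 fell by at least 1, which is 2-fold, where 4.59% and 0.974% of all probe sets did so. At 9 h 8 rose and 1 fell that far (3.16% and 1.3% of all), and at 14 h 4 rose and 4 fell (4.63% and 3.24%). In a bulk sample less of an RNA per cell and fewer cells of a type that carries it cannot be told apart.

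Between neighbouring times, 7 members rose and 9 fell from 3 to 9 h (7.59% and 11.8% of all probe sets), and 3 rose and 13 fell from 9 to 14 h (10% and 10.1%). By at least 1, 2 rose and 1 fell in the first of these steps (0.886% and 1.97% of all) and 2 rose and 10 fell in the second (2.07% and 3.37%). Cat, Sod2, Hmox1, Txn2 and Txnrd1 were among the members called by their representative in none of the 5 time contrasts. Under quantile normalization 20 members rose and 14 fell at 3 h, where 1983 and 2370 of all 12422 probe sets did so. As deposited, 2161 and 3152 of all probe sets rose and fell then. The share of members that fell at 3 h lay below that of all probe sets as deposited and above it under quantile normalization. From 3 to 9 h 9 members rose and 6 fell under quantile normalization, where 869 and 1207 of all did so. Single arrays set part of the member counts. Without the WT 0 h array 12 members rose and 3 fell at 3 h and 6 rose and 3 fell at 9 h, and without the WT 3 h array 12 rose and 3 fell at 3 h, and 3 rose and 4 fell from 3 to 9 h. Without the WT 9 h array 3 fell at 9 h, and 2 rose and 3 fell from 3 to 9 h. Without the EP2KO 9 h array 9 rose at 9 h and 3 rose from 3 to 9 h, and without the EP2KO 14 h array 6 fell at 14 h.

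**Figure D1:**
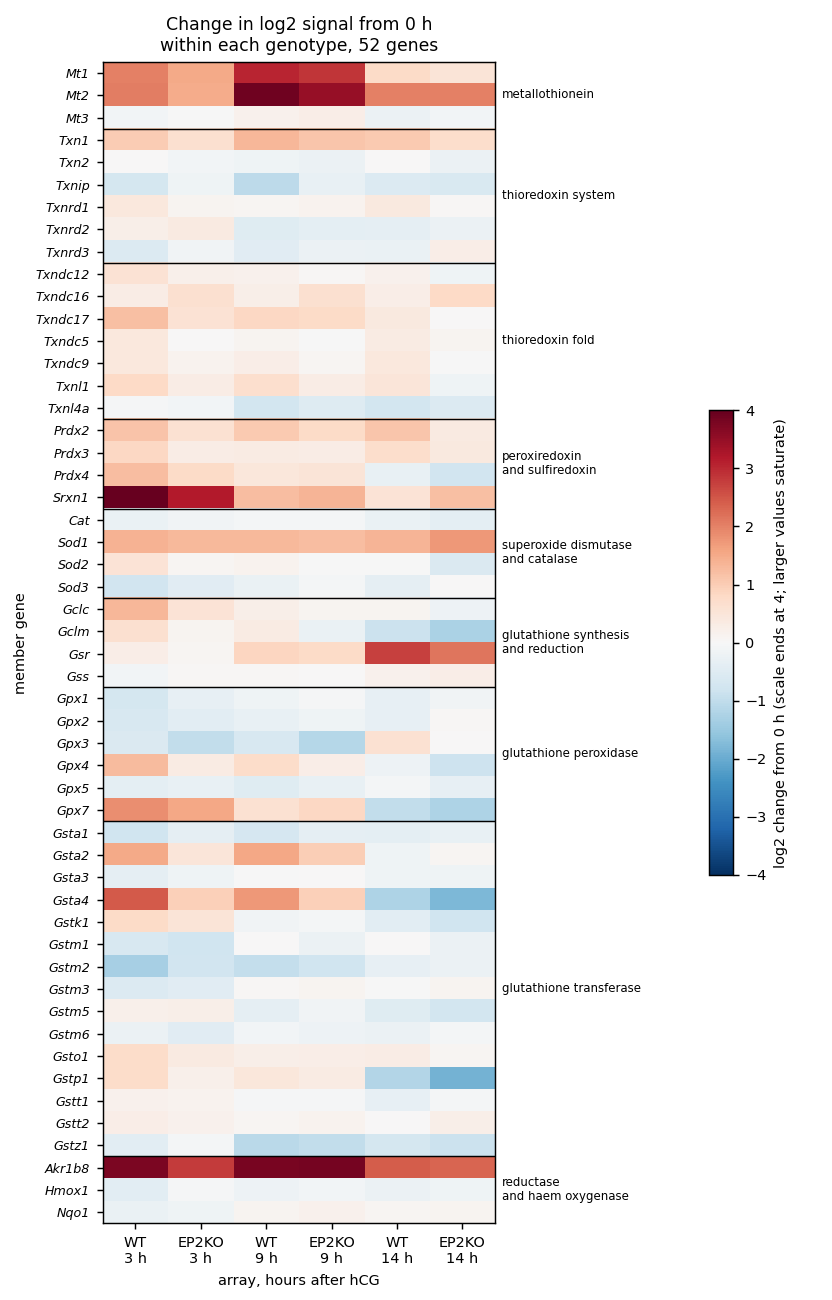
Change in log2 signal from 0 h (colour) for the 52 genes (rows, grouped by role) on the 6 arrays after hCG (columns), each against the 0 h array of its own genotype. The deepest red lies in Srxn1 at 3 h (4.57 in WT, 3.18 in EP2KO), in Mt1 and Mt2 at 9 h and in Akr1b8 at 3 and 9 h, while Gsta4 and Gstp1 turn blue at 14 h and Gsr turns red there.

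The metallothioneins Mt1 and Mt2 climbed through 9 h and came down by 14 h, whereas Mt3, known mainly from the brain, was not called against 0 h at any time. The log2 signal of Mt2 was 9.77, 11.83, 13.67 and 11.79 at 0, 3, 9 and 14 h in WT, and 9.82, 11.29, 13.29 and 11.84 in EP2KO. Mt1 read 9.79, 11.81, 12.83 and 10.55 in WT mice, and 9.84, 11.37, 12.69 and 10.36 in EP2KO. For both genes the 9 h arrays were the highest and the 0 h arrays the lowest, and the arrays of 0, 3 and 9 h did not overlap. Errors after ± are standard errors of the fit, with n = 2 arrays at each time. Mt2 rose by 1.76 ± 0.16 at 3 h (limma, adjusted p = 7.16e-05), by 3.68 ± 0.16 at 9 h (adjusted p = 4.47e-07), a 12.8-fold change, and was still 2.02 up at 14 h. Mt1 rose by 1.78 ± 0.135 at 3 h and 2.94 ± 0.135 at 9 h (adjusted p = 5.85e-07) and stood 0.64 above 0 h at 14 h (adjusted p = 0.00495; 0.49 and 0.0732 without the WT 0 h array). From 9 to 14 h Mt1 fell by 2.31 ± 0.135 and Mt2 fell by 1.66 ± 0.16.

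The 8 values of Mt3 lay between 10.77 and 11.17. Its step from 9 to 14 h was -0.38 ± 0.113 (limma, adjusted p = 0.0382), a call that ended under quantile normalization (adjusted p = 0.0683), with a trended prior, with only the 4 arrays compared, and without any 1 of those 4 arrays (0.106 to 0.289). Genes that handle zinc and copper were followed as a list of 15 measured genes. Of these 6 rose and 3 fell at 3 h (17.4% and 25.4% of all probe sets), and 4 rose and 1 fell at 9 h (10.9% and 12.1%). At 14 h 5 rose and 3 fell (13.5% and 15.2%). Cox17, a copper chaperone of mitochondria, rose by 1.52, 1.60 and 0.90 at 3, 9 and 14 h, and Atox1, the chaperone that feeds copper pumps, by 0.98 and 0.90 at 3 and 9 h. The zinc sensor Mtf1 read 8.32 to 8.70 and the zinc exporter Slc30a1, itself a known target of MTF1, 5.12 to 5.38 over the 8 arrays. Neither was called at any time against 0 h. The low signal of Slc30a1 may lie near background, as no detection calls were at hand.

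**Figure D2:**
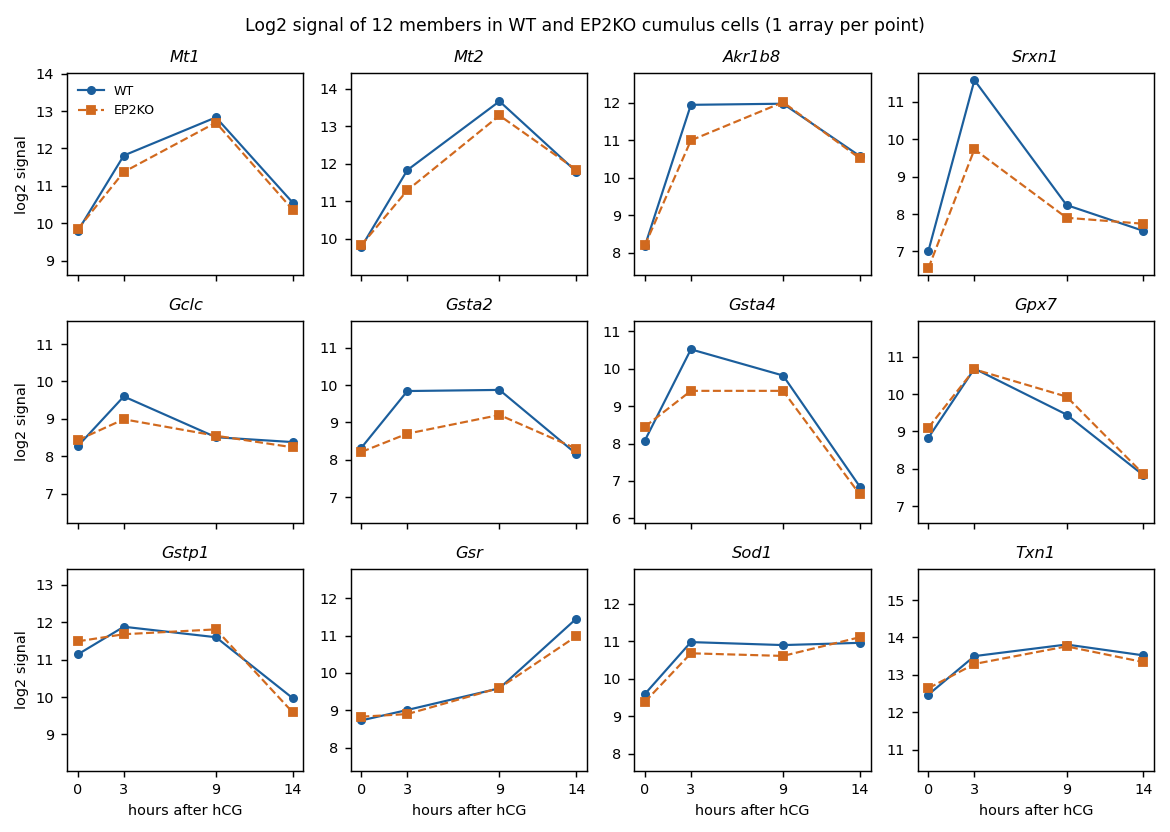
Log2 signal (vertical axis, the same span in every panel) against hours after hCG (horizontal axis) for 12 genes, with 1 array per point, WT as blue circles and EP2KO as orange squares. Mt1 and Mt2 peak at 9 h, Srxn1 and Gclc at 3 h, Gsr climbs to 14 h, and the WT point lies above the EP2KO point at 3 h for Srxn1, Akr1b8, Gsta2, Gsta4 and Gclc.

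Srxn1 made the sharpest early peak. Its log2 signal was 7.01, 11.58, 8.24 and 7.55 at 0, 3, 9 and 14 h in WT, and 6.55, 9.73, 7.90 and 7.74 in EP2KO. Both 3 h arrays stood above the other 6, and the 9 h arrays came next. The rise by 3 h was 3.88 ± 0.351 (limma, adjusted p = 7.08e-05), a 14.7-fold change, and Srxn1 fell by 2.58 ± 0.351 from 3 to 9 h (adjusted p = 0.00117). At 9 h it was 1.29 above 0 h (adjusted p = 0.0244), a call lost without the WT 0 h array (adjusted p = 0.201), the EP2KO 0 h array (0.101) or the EP2KO 9 h array (0.109), and with its probe sets averaged (0.52, adjusted p = 0.0942). The other Srxn1 probe set, of incomplete design, fell by 0.86 at 3 h.

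The peroxiredoxins, the thiol peroxidases that sulfiredoxin repairs, rose less. Prdx4, of the endoplasmic reticulum, read 10.06, 11.29, 10.51 and 9.76 in WT mice, and 10.41, 11.19, 10.94 and 9.64 in EP2KO. It rose by 1.0 ± 0.157 at 3 h (limma, adjusted p = 0.00113), fell by 1.02 from 9 to 14 h and was lower than at 0 h by then (-0.54, adjusted p = 0.0272). The fall of Prdx4 at 14 h and its rise of 0.49 at 9 h depended on single arrays, and the rise at 9 h also lost its call after median centring (adjusted p = 0.0531), under quantile normalization (0.0614), with probe sets averaged (0.05) and with a trended prior (0.0545). Leaving out the EP2KO 0 h array gave -0.40 at 14 h (adjusted p = 0.204), leaving out EP2KO 14 h -0.36 (0.216) and leaving out WT 0 h -0.68 (0.0539). At 9 h these values were 0.35 (0.336) when WT 0 h was left out, 0.63 (0.071) for EP2KO 0 h and 0.30 (0.446) for EP2KO 9 h. Prdx3, the mitochondrial form, rose by 0.56 at 3 h (adjusted p = 0.0117; 0.0633 under quantile normalization, 0.138 and 0.141 with the WT 0 h or WT 3 h array left out). It rose by 0.54 at 14 h (0.182 without the WT 0 h array, 0.112 without the WT 14 h array). Prdx2, abundant in red cells, rose by 0.87, 0.90 and 0.74 at 3, 9 and 14 h by its representative probe set, yet another Prdx2 probe set fell by 0.51 at 3 h and fell by 0.45 at 14 h, and one of low signal fell by 0.45 at 3 h. The rises of the representative lost their call without the WT 0 h array (adjusted p = 0.0511, 0.0582 and 0.103) and at 14 h without the WT 14 h array (0.0829). The representative Prdx2 probe set read 12.81 in WT and 12.97 in EP2KO at 9 h, where the alpha globin Hba-a1 read 13.39 and 10.94.

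Of the thioredoxin chain, thioredoxin itself rose and its reductases did not. Txn1 read 12.47, 13.50, 13.81 and 13.52 at 0, 3, 9 and 14 h in WT, and 12.64, 13.29, 13.76 and 13.34 in EP2KO. The 6 arrays after hCG were all above both 0 h arrays. The rises were 0.84 ± 0.129 at 3 h, 1.23 ± 0.129 at 9 h (limma, adjusted p = 1.41e-04) and 0.88 at 14 h. The cytosolic reductase Txnrd1 stood 0.26 above 0 h at 3 h (adjusted p = 0.143), and Txn2, the mitochondrial thioredoxin, moved by -0.04 to -0.20 without passing. Txnrd2, the mitochondrial reductase, fell by 0.43 at 9 h (adjusted p = 0.0218), a call lost without any 1 of the 4 arrays of 0 and 9 h (0.0506 to 0.172), while Txnrd3, a reductase best known from testis, was not called by its representative (-0.34 at 3 h and 9 h). The other Txnrd3 probe set, like the representative with the suffix _r in its name, fell by 0.68 at 3 h (adjusted p = 0.00479) and fell by 0.50 at 9 h (0.0285). Txnip, which binds thioredoxin and holds it inactive, fell by 0.68 at 9 h and fell by 0.58 at 14 h (adjusted p = 0.0271 and 0.0416) by 1 probe set, and its other probe set stood at 0.06 and -0.06. The Txnip calls were lost without the WT 0 h array (-0.48 and -0.38), at 9 h without the WT 9 h array (-0.38), and at 14 h without the EP2KO 0 h array (-0.78, adjusted p = 0.0545) or the EP2KO 14 h array (-0.33).

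Of the 7 other genes whose proteins share the thioredoxin fold, 4 rose and 0 fell at 3 h (17.4% and 25.4% of all probe sets). Txndc17, a cytosolic disulfide reductase, rose by 0.89 at 3 h and 0.80 at 9 h, Txnl1, linked to the proteasome, by 0.56 and 0.48, Txndc16, of the endoplasmic reticulum, by 0.47 and 0.44, and Txndc12, also of the endoplasmic reticulum, by 0.40 at 3 h. Txnl4a, a spliceosome protein with a thioredoxin fold, fell by 0.62 at 9 h (adjusted p = 0.00511; 0.0623 without the WT 0 h array, 0.0904 without the WT 9 h array) and fell by 0.65 at 14 h. Txndc5, a protein disulfide isomerase, and Txndc9 were called in no time contrast. Most of these rises were small and rested on single arrays. Without the WT 0 h array the 3 h calls of Txnl1 (0.30) and Txndc12 (0.26) were lost, and without the WT 3 h array those of Txnl1 (0.47), Txndc12 (0.28) and Txndc16 (0.49). The call of Txndc12 was also lost without either 9 h array (adjusted p = 0.0551). For Txndc16 this also held without the EP2KO 0 h array (0.25) or the EP2KO 3 h array (0.45). At 9 h the call of Txndc17 ended without the WT 0 h array (0.62) or the EP2KO 9 h array (0.65), and those of Txnl1 and Txndc16 ended in 5 of the 8 fits with 1 array left out (adjusted p up to 0.421 and 0.329).

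Superoxide dismutases turn superoxide into hydrogen peroxide, and of these 3 genes only Sod1, the copper and zinc enzyme of the cytosol, rose at any time against 0 h. Sod1 read 9.59, 10.98, 10.90 and 10.96 in WT mice, and 9.38, 10.68, 10.61 and 11.11 in EP2KO. All 6 arrays after hCG lay above the 0 h arrays, with changes of 1.34 ± 0.138, 1.27 ± 0.138 and 1.55 ± 0.138 at 3, 9 and 14 h (limma, adjusted p = 1.28e-04, 1.69e-04 and 1.87e-05). Mitochondrial Sod2 stood at 0.32, 0.06 and -0.29 and was not called. The secreted Sod3 fell by 0.62 at 3 h (adjusted p = 0.00482; 0.07 and 0.0549 with the WT 0 h or WT 3 h array left out) and stood at -0.18 at 9 h, not called. Catalase, which breaks down hydrogen peroxide, stood at -0.20, -0.08 and -0.32 with no call, and its other probe set at -0.10, 0.12 and 0.24, also not called.

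Glutathione synthesis and reduction changed at different times. Gclc, the catalytic subunit of the limiting enzyme, read 8.27, 9.60, 8.51 and 8.38 in WT mice, and 8.43, 8.99, 8.55 and 8.24 in EP2KO, so its 3 h arrays were the highest. It rose by 0.94 ± 0.171 at 3 h (limma, adjusted p = 0.00231) and fell by 0.76 from 3 to 9 h (adjusted p = 0.0127). Without the WT 3 h array that step was -0.45 and with the WT 9 h array left out -0.65, neither called (adjusted p = 0.15 and 0.151). Gclm, the regulatory subunit, read 9.15, 9.78, 9.47 and 8.29 in WT mice, and 9.37, 9.48, 9.10 and 8.11 in EP2KO. Gclm was not called at 3 h (0.37, adjusted p = 0.0694) and fell by 1.06 ± 0.15 at 14 h (adjusted p = 4.12e-04). Gss, which completes glutathione, stood at -0.03, 0.04 and 0.22 at 3, 9 and 14 h and was not called. A second Gss probe set, with the suffix _r in its name, fell by 0.76 at 3 h and fell by 0.62 at 9 h.

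Gsr, the reductase, behaved differently from both ligase subunits and was highest after ovulation. Its log2 signal was 8.73, 9.01, 9.59 and 11.45 at 0, 3, 9 and 14 h in WT, and 8.83, 8.90, 9.60 and 10.98 in EP2KO. The arrays of 0, 9 and 14 h did not overlap. Gsr rose by 0.82 ± 0.147 at 9 h (adjusted p = 0.00314; 0.0585 without the WT 0 h array) and by 2.44 ± 0.147 at 14 h (limma, adjusted p = 1.54e-06), a 5.43-fold change. The step from 9 to 14 h was 1.62 ± 0.147. Leukocyte and oviduct markers were also higher at 14 h, with the levels given above, and their part in the rise of Gsr was not tested.

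The glutathione peroxidases moved in opposite directions. Gpx7, an enzyme of the endoplasmic reticulum, read 8.83, 10.68, 9.45 and 7.83 in WT mice, and 9.10, 10.66, 9.93 and 7.86 in EP2KO. The arrays of the 4 times did not overlap, with 3 h highest and 14 h lowest. Gpx7 rose by 1.70 ± 0.142 at 3 h (limma, adjusted p = 4.46e-05) and fell by 1.12 ± 0.142 at 14 h against 0 h (adjusted p = 2.06e-04). Gpx4, which clears lipid peroxides, rose by 0.79 at 3 h, with changes of 1.25 in WT and 0.33 in EP2KO, and fell by 1.0 from 9 to 14 h. Its 3 h value was 0.46 (adjusted p = 0.115) with the WT 0 h array left out and 0.51 (0.11) with the WT 3 h array left out.

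Gpx3, the secreted peroxidase, read 9.11, 8.53, 8.47 and 9.73 in WT mice, and 9.69, 8.72, 8.55 and 9.70 in EP2KO. Gpx3 fell by 0.78 at 3 h and fell by 0.89 at 9 h (adjusted p = 0.00333 and 0.00223) and rose by 1.2 ± 0.151 from 9 to 14 h (adjusted p = 3.03e-04), which brought it to 0.32 above 0 h without a call. Gpx1, the common cytosolic form, fell by 0.51 at 3 h and Gpx2, known from the gut, fell by 0.53. Without the WT 0 h array neither was called (adjusted p = 0.11 and 0.104), nor without the WT 3 h array (0.109 and 0.071). Gpx5, best known from the epididymis, was not called by its representative (-0.34 at 3 h, adjusted p = 0.0571), while a family probe set of Gpx5 fell by 0.44 at 3 h (0.0171).

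Among the 15 glutathione transferases, 4 rose and 5 fell at 3 h (17.4% and 25.4% of all probe sets), and 0 rose and 5 fell at 14 h (13.5% and 15.2%). Gsta4, which conjugates the lipid aldehyde hydroxynonenal, read 8.08, 10.52, 9.82 and 6.85 in WT mice, and 8.45, 9.41, 9.41 and 6.64 in EP2KO. Its 14 h arrays lay below the 0 h arrays and its 3 and 9 h arrays above them. Gsta4 rose by 1.70 ± 0.259 at 3 h (limma, adjusted p = 9.86e-04), fell by 2.87 ± 0.259 from 9 to 14 h (adjusted p = 4.24e-05) and over the whole course fell by 1.52 ± 0.259 (14 h against 0 h, adjusted p = 0.00134). Its rise of 1.35 at 9 h lost its call without the WT 0 h array (0.88, adjusted p = 0.0767).

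Gsta2, of the same alpha class, read 8.32, 9.84, 9.87 and 8.16 in WT mice, and 8.21, 8.70, 9.20 and 8.30 in EP2KO. It rose by 1.0 at 3 h (adjusted p = 0.00981), but the value was 0.54 (adjusted p = 0.132) with the WT 3 h array left out and 0.78 (0.139) with the WT 0 h array left out. At 9 h its rise was 1.27 (1.05, adjusted p = 0.0933, without the WT 0 h array), and it fell by 1.3 from 9 to 14 h. Gstp1, the pi-class enzyme, read 11.14, 11.88, 11.60 and 9.97 in WT mice, and 11.49, 11.68, 11.81 and 9.59 in EP2KO. Both 14 h arrays of Gstp1 lay below the other 6, and it fell by 1.54 ± 0.172 at 14 h against 0 h (limma, adjusted p = 8.9e-05) and fell by 1.92 from 9 h.

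Gstz1, an isomerase of tyrosine breakdown, fell by 1.02 at 9 h and fell by 0.78 at 14 h. Gstk1, of mitochondria and peroxisomes, rose by 0.65 at 3 h and fell by 0.62 at 14 h against 0 h. Gsto1, of the omega class, rose by 0.54 at 3 h. Gsta1 fell by 0.57 at 3 h and fell by 0.51 at 9 h, and Gsta3, Gstt1 and Gstt2 were called in no time contrast. The Gsta1 probe set, with the suffix _i in its name, had a mean signal of 6.24, in the lowest 20.5% of probe sets. With no detection calls at hand it may lie near background. Its 3 h call also ended under quantile normalization (-0.36, limma, adjusted p = 0.052). The 3 h calls of Gstk1, Gsto1 and Gsta1 were lost with the WT 0 h array left out (0.55, 0.44 and -0.43) or the WT 3 h array (0.57, 0.38 and -0.42). Likewise the 14 h call of Gstk1 ended without the EP2KO 0 h array (-0.52) or the EP2KO 14 h array (-0.46), and the 9 h call of Gsta1 without the WT 0 h (-0.37), WT 9 h (-0.44) or EP2KO 9 h array (-0.58). Most representatives of the mu class are not of plain design. Gstm1, Gstm3 and Gstm5 were represented by probe sets whose names mark sequence shared within the family and Gstm2 by one with the suffix _r, while Gstm6 has a plain one.

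At 3 h Gstm1 fell by 0.72, Gstm2 fell by 1.06, Gstm3 fell by 0.50 and Gstm6 fell by 0.35. The plain probe set of Gstm2 stood at -0.14 at 3 h (adjusted p = 0.474) and fell by 0.94 at 14 h, where the representative was not called. The other Gstm3 probe set, tied with the first in mean signal, stood at 0.04 at 3 h, and the call of Gstm3 ended without the WT 0 h array (-0.45) or the WT 3 h array (-0.48). For Gstm6 the call ended in 10 of 15 alternatives, median centring among them (adjusted p = 0.102). Within the mu class the Gstm5 probe sets parted most at 3 h. Its plain probe set read 8.22, 10.12, 8.71 and 7.15 in WT mice, and 8.56, 9.90, 9.24 and 7.04 in EP2KO, and rose by 1.62 ± 0.176 at 3 h (limma, adjusted p = 1.76e-04) and by 0.58 at 9 h (0.0372), and at 14 h fell by 1.3 against 0 h. The shared probe set of Gstm5 stood at 0.20 at 3 h with no call and fell by 0.62 at 14 h. That call was lost without the EP2KO 14 h array (-0.45). Another Gstm5 probe set, with the suffix _r, fell by 0.62 at 3 h.

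**Figure D3:**
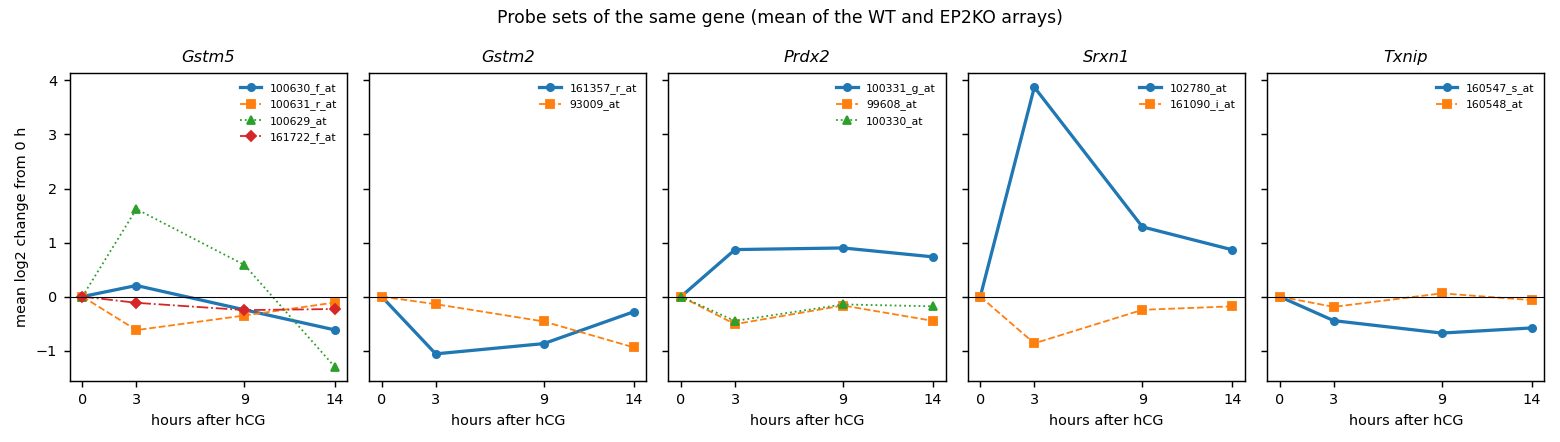
Mean log2 change from 0 h of the WT and EP2KO arrays (vertical axis) against hours after hCG (horizontal axis) for every probe set of 5 genes; the thick line is the representative probe set. The Gstm5 plain probe set peaks at 1.62 at 3 h where another Gstm5 probe set is at -0.62, and the Srxn1 probe sets stand at 3.88 and -0.86.

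Counts of calls at 3 h also differed between kinds of probe set. Of the 49 member probe sets with a plain name 20 rose and 7 fell at 3 h. Of the 19 whose names carry a further suffix (_f, _r, _i, _s or _g) 1 rose and 10 fell. Over the whole array 18.8% of the 9614 plain probe sets rose and 22.7% fell, against 12.4% and 34.4% of the 2808 others. Prdx2 went against this split, since its representative, not of plain name, rose and both plain probe sets fell.

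Akr1b8, an aldo-keto reductase of aldehydes, was raised at all 3 times after hCG, most at 9 h. It read 8.17, 11.95, 11.98 and 10.58 in WT mice, and 8.19, 11.0, 12.02 and 10.52 in EP2KO, with every array after hCG above both 0 h arrays. Akr1b8 rose by 3.30 ± 0.214 at 3 h, 3.82 ± 0.214 at 9 h (limma, adjusted p = 2.53e-06), a 14.1-fold change, and 2.37 ± 0.214 at 14 h. From 9 to 14 h Akr1b8 fell by 1.45 ± 0.214 (adjusted p = 8.07e-04). Haem oxygenase Hmox1 and the quinone reductase Nqo1, known NRF2 targets, were not called against 0 h. Hmox1 read 9.41 to 9.84, with a change of -0.24 at 3 h (adjusted p = 0.142). Nqo1 read 5.93 to 6.47, and with no detection calls at hand such a signal may lie near background.

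The genotype contrast asks whether loss of EP2 changes these genes. Averaged over the 4 times, 0 of the 52 members passed, as did 0% of all probe sets (limma, adjusted p under 0.05). The smallest p values belonged to Gsta2 (EP2KO minus WT -0.44 ± 0.174, adjusted p = 0.944), Srxn1 (-0.62 ± 0.248, adjusted p = 0.948) and Gpx5 (-0.22 ± 0.0933, adjusted p = 0.948). The departure of the genotype difference at 14 h from the earlier times also gave 0 of 52, where 0.0805% of all probe sets passed. The standard errors had a median over all probe sets of 0.0917 (genotype) and 0.208 (departure). Ptger2, the targeted gene, was itself not called in the genotype contrast, although its readings did not overlap between the genotypes. A real difference could thus have been missed. Ptger2 reads low, and with no detection calls at hand it may lie near background. How large a difference could be missed in genes of higher signal was not tested.

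At single times 1 array stood against 1 and nothing was tested. At 0, 9 and 14 h no member differed by 1 or more on the log2 scale, where 0.0242%, 0.0403% and 0.169% of all probe sets were higher in EP2KO and 0.0161%, 0.0886% and 0.0483% lower by that much. The widest gaps were 0.58 for Gpx3 and Gpx4 at 0 h, and 0.74 for Txnip and -0.67 for Gsta2 at 9 h. At 14 h they were -0.47 for Gsr and Gpx5. At 3 h 3 of the 52 members (5.77%) read lower in EP2KO by at least 1, where 0.403% of all probe sets did so, and 6 (11.5%) by at least 0.5, where 2.97% of all did. Srxn1 stood at -1.85, Gsta2 at -1.14, Gsta4 at -1.11, Akr1b8 at -0.95, Gclc at -0.61 and Mt2 at -0.54. These 6 are all genes that rose at 3 h, and the WT and EP2KO changes from 0 h were 4.57 and 3.18 for Srxn1, 2.44 and 0.96 for Gsta4, 1.52 and 0.49 for Gsta2, and 3.78 and 2.81 for Akr1b8. Txnip went the other way at 3 h, with 0.54, and no member was higher in EP2KO by 1 or more then (0.0644% of all).

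A lower 3 h reading in EP2KO was common among probe sets that rose at that time. Of the 570 probe sets that rose by at least 1 at 3 h, 90.2% read lower in EP2KO at 3 h, with a median of -0.29, and 6.67% read lower by at least 1. Over all probe sets tested these shares were 44.5% and 0.403%, with a median of 0.02. The rise was taken from both 3 h arrays, so a gene could enter through the WT array alone, as Gsta2 did (1.52 in WT, 0.49 in EP2KO), and a lower EP2KO reading among such genes is a description that supports nothing further. In a fit with a term for the genotype difference at 3 h, added after these values were seen, 0 of 52 members and 0% of all probe sets passed. The same fit at 0 h and at 9 h gave 0 of 52 and 0% of all probe sets as well. At 3 h Srxn1 departed by -1.65 ± 0.26 (limma, adjusted p = 0.145), Akr1b8 by -0.95 ± 0.184 (adjusted p = 0.245) and Gsta4 by -1.03 ± 0.284 (adjusted p = 0.499). The WT 3 h array also read higher in Hba-a1, at 12.21 against 11.0 in EP2KO.

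**Figure D4:**
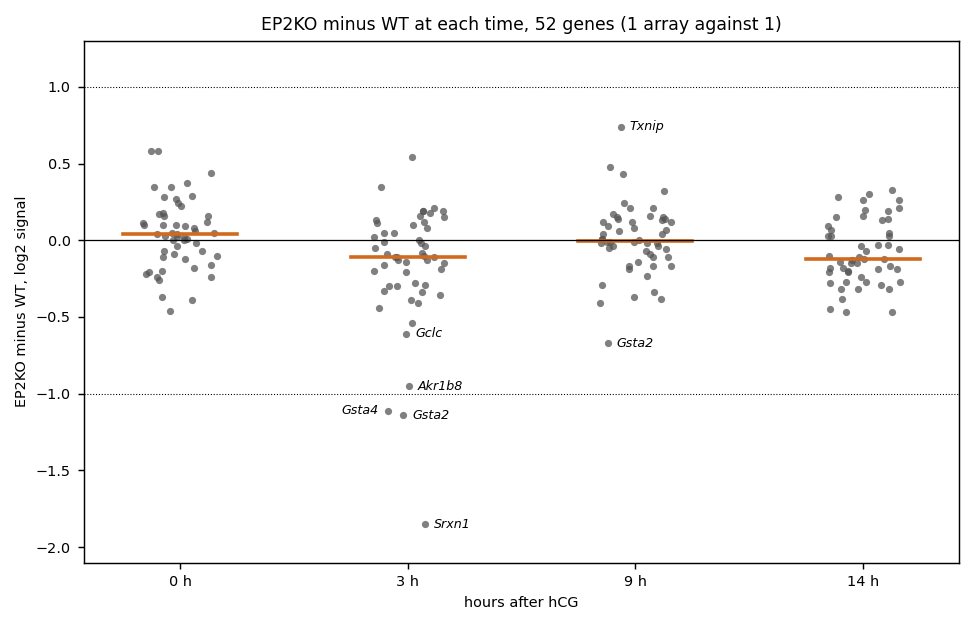
EP2KO minus WT in log2 signal (vertical axis) at each time after hCG (horizontal axis) for the 52 genes, 1 array against 1; points are genes, spread sideways for view, the orange bar is the median and dotted lines mark 1 and -1. At 3 h Srxn1, Gsta2 and Gsta4 lie below -1 and Akr1b8 just above it, and at 0, 9 and 14 h no gene reaches either line.

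Other genes of the same chemistry were followed in lists. Their counts are to be read against all probe sets, of which 17.4% rose and 25.4% fell at 3 h, 10.9% and 12.1% at 9 h, and 13.5% and 15.2% at 14 h. Among 9 measured regulators of the NRF2, BACH and MAF group, 5 rose and 0 fell at 3 h, 4 rose at 9 h and 5 at 14 h. Nfe2l2 read 9.63, 11.06, 10.32 and 10.93 in WT mice, and 9.68, 10.32, 10.15 and 10.61 in EP2KO, and rose by 1.03 ± 0.169 at 3 h (limma, adjusted p = 0.00143), 0.58 at 9 h and 1.12 at 14 h. Bach1, a repressor at the same elements, rose by 0.66, 0.68 and 1.24 at 3, 9 and 14 h, with 10.10 in WT and 9.02 in EP2KO at 3 h. Keap1, which marks NRF2 for destruction, read 7.26 to 7.46 on all arrays and was not called against 0 h.

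NADPH feeds both the glutathione and the thioredoxin chain, and 7 of 9 measured genes of its supply rose at 3 h with 0 falling. Me1, malic enzyme, rose by 1.46, 2.08 and 3.62 at 3, 9 and 14 h, and Idh1, cytosolic isocitrate dehydrogenase, by 0.36, 2.12 and 3.30. Taldo1, of the pentose phosphate pathway, rose by 1.21 and 1.34 at 3 and 9 h. Pgls, also of the pentose phosphate pathway, rose by 1.12 at 3 h and fell by 0.76 at 14 h. At 9 h 3 of the 9 rose and 1 fell, and at 14 h 4 rose and 3 fell.

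Among 14 measured genes of glutathione supply, cycle and transport 3 rose and 3 fell at 3 h, and 1 rose and 1 fell at each of 9 and 14 h. Ggct, a glutamylcyclotransferase of glutathione breakdown, rose by 2.81 at 3 h, and Slc3a2, the heavy chain of amino acid exchangers, by 0.92, 1.26 and 0.82 at 3, 9 and 14 h. Its partner Slc7a11, the cystine exchanger, read 4.20 to 4.62 and was not called. With no detection calls at hand so low a signal may lie near background. Of 7 other glutathione transferases 3 rose and 1 fell at 3 h, 1 rose at 9 h, and 2 rose and 2 fell at 14 h, with Mgst1, the microsomal enzyme, up by 2.28, 3.12 and 2.73. Of 21 quinone, aldehyde and xenobiotic enzymes 7 rose and 2 fell at 3 h, 4 rose and 2 fell at 9 h, and 4 rose and 3 fell at 14 h; Ephx2, an epoxide hydrolase, rose by 1.42, 2.14 and 1.96, and Aldh1a1, a retinaldehyde dehydrogenase, fell by 2.27 at 9 h and fell by 2.94 at 14 h.

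Of 12 genes of iron storage and haem 1 rose and 6 fell at 3 h, 0 were called at 9 h, and 1 rose and 1 fell at 14 h. Tfrc, the transferrin receptor, fell by 0.56 at 3 h. Of 10 oxidant-producing oxidases 0 rose and 3 fell at 3 h, a share of falls near that of all probe sets, 0 were called at 9 h, and 4 rose and 2 fell at 14 h, when Maoa, a monoamine oxidase, rose by 0.76 and Cyba, a subunit of the NADPH oxidases, by 0.66. Of 8 genes of methionine repair and selenoproteins 3 rose at 3 h, 3 at 9 h and 2 at 14 h with 0 falling, led by Selenok, of the endoplasmic reticulum, at 1.46 and 1.42 at 3 and 9 h. Of 18 further stress-response genes 9 rose and 2 fell at 3 h, 8 rose and 2 fell at 9 h, and 8 rose and 3 fell at 14 h. Nupr1, a stress-induced nuclear protein, rose by 3.78, 4.78 and 3.30 at 3, 9 and 14 h, and Gadd45a, a growth arrest gene, by 1.03, 1.82 and 3.28.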

How the data were processed

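Total RNA of cumulus cells (100 ng per sample) was amplified in 2 cycles and hybridised to 1 Affymetrix array per genotype and time, per the labels. The authors deposited log2 signals with 2 decimals; per the submitters' processing notes they were made with RMA (version not given in the sources used here). Array medians ran from 7.79 to 7.89 and SDs from 1.77 to 1.99, so the 8 arrays do not share 1 distribution. Signals were used as deposited, with no added constant and no filter on low values. Of 12488 probe sets 66 controls were left out, so 12422 were tested. Symbols come from the platform's annotation, and all 68 member symbols matched RefSeq (GRCm38.p6) by gene ID. A tie between the 2 Gstm3 probe sets went to the name that sorts first.

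Tests used R 4.3.3 and limma 3.58.1 (lmFit and eBayes, two-sided, Benjamini-Hochberg over all probe sets), with 3 residual degrees of freedom for time and genotype contrasts and 2 for departures. The code was tested on simulated data. With 1 array per genotype and time, a genotype difference in the response goes into the residual; p-values measure only how these single arrays vary, which may be technical in part, and precision is limited by their number. At most 2.55% of values were equal between any 2 arrays.

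Named were the members past the threshold with a log2 change of at least 1, every member by count, and up to 4 genes per pathway list. Other probe sets were named where they had a call against 0 h that the representative lacked or opposed, and in some cases for sign alone. The members, lists and contrasts were chosen with earlier results of these data known. Alternatives were each array centred on its median, quantile normalization, the lowest 40% of probe sets left out, probe sets of a gene averaged, a trended prior, only the arrays compared, each array left out in turn and, chosen after seeing the data, plain probe sets preferred, both 14 h or both 3 h arrays left out, and departures at 0, 3 and 9 h.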

Additional observations from a re-analysis of the deposited data

How the results depend on the processing

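No paired analysis was possible because every group holds 1 array and the labels link no animals. Leaving out 1 array at a time, the members that rose and fell numbered 12 to 21 and 3 to 10 at 3 h, 6 to 15 and 3 to 8 at 9 h, 6 to 10 and 6 to 11 at 14 h, 2 to 7 and 3 to 9 from 3 to 9 h, and 2 to 3 and 10 to 13 from 9 to 14 h; the genotype contrast and the 14 h departure stayed at 0. Quantile normalization gave 14 falls at 3 h in place of 9, of which 7 were shared. Over all probe sets it gave 2370 falls at 3 h in place of 3152. With only the 4 arrays compared, 5 fell from 3 to 9 h and 8 from 9 to 14 h. With plain probe sets preferred, signs turned for Prdx2 (-0.51, -0.16 and -0.45 at 3, 9 and 14 h), Txnip at 9 h (0.06) and Gstm2 from 9 to 14 h (-0.48), and with probe sets averaged for Prdx2 at 3 h (-0.03). The cause was not tested beyond the choice of probe set itself. Under all alternatives other than leaving out an array, the other counts of members stayed within 1.5 times; the 14 h departure could not be fitted without a 14 h array. Rises of Srxn1, Akr1b8, Mt1, Mt2, Gsta4, Gpx7, Sod1, Txn1 and Gclc at 3 h and of Gsr at 14 h, and falls of Gstp1, Gsta4 and Gpx7 at 14 h, kept call and direction under each of the 16 alternatives run. Median centring moved the median change of all probe sets at 3 h from -0.135 to -0.06, and turned the calls over all probe sets from 2161 higher and 3152 lower to 2394 and 2111. With no detection calls in use, low signals such as those of Nqo1 (mean in the lowest 20.7% of probe sets) may lie near background.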
